A study of Homo sapiens with 8 samples.

Results

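CD46, CD55 and CD59 are the 3 membrane proteins with which most human cells hold complement in check on their own surface. They were examined in MOLM-13, a human acute myeloid leukemia (AML) cell line, as 3 of the 62639 genes with a listed transcript. Their transcripts were chosen by gene, from all rows that GENCODE version 44 assigns to these symbols, and the genes had been selected with results of the same comparison in view. Their own values are therefore given as a description. Where calls of a fit over all genes or isoforms include a member, they are given beside the share called over the whole table and support nothing. The annotation places 33 transcripts on CD46 (ENSG00000117335.21, chr1:207752037-207795513 of GRCh38, plus strand), 23 on CD55 (ENSG00000196352.18, chr1:207321519-207386804, plus strand) and 17 on CD59 (ENSG00000085063.18, chr11:33703010-33736479, minus strand). Of these 73 among 254070 listed transcripts, 33 had a count in at least 1 library, namely 19 of CD46, 7 of CD55 and 7 of CD59.

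The cells carried a lentiviral, doxycycline (dox) inducible shRNA, either against PTBP1 (shPTBP1, genotype PTBP1 KD) or scrambled (shControl). Cells of both arms received dox for 9 days, and 4 biological replicates of each arm were sequenced as nanopore cDNA. As reporters, cells of either arm carry mCherry at all times and ΔLNGFR once the shRNA is induced. There was 1 shRNA per arm, so that loss of PTBP1 and any other effect of that shRNA cannot be told apart. PTBP1 is a nuclear protein that binds pyrimidine-rich RNA and commonly represses the inclusion of nearby exons. Its knockdown was visible in these libraries, with PTBP1 at 9.88 ± 3.55 CPM (SD, n = 4) in shPTBP1 and 47.5 ± 7.81 CPM in shControl (CPM, counts scaled to library size with TMM normalization, log2 fold change -2.26 ± 0.22 SE, adjusted p = 7.18e-05 by edgeR's quasi-likelihood test with Benjamini-Hochberg adjustment). Its neuronal paralog PTBP2, a transcript that PTBP1 is known to keep low, had 768 counts in all in shPTBP1 and 9 in shControl. Each library held between 1528449 and 1613342 counts, and 12322 to 12589 genes had a count. Of 12 markers of myeloid leukemia cells, 10 had a count in all 8 libraries, with a summed level of 678 to 809 CPM in shPTBP1 and 632 to 681 CPM in shControl, and CSF2RA was at 0. The summed markers of T, B, erythroid, epithelial and megakaryocytic cells did not exceed 8.60 CPM in any library, and the T-cell markers CD3D, CD3E and CD3G were at 0. In bulk RNA, fewer cells with a transcript and less of it per cell cannot be told apart.

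Complement is a cascade of plasma proteases that deposits fragments of C3 and C4 on surfaces, assembles convertases and ends in a pore, the membrane attack complex. CD46 (membrane cofactor protein) lets factor I cut deposited C3b and C4b, CD55 (decay-accelerating factor) takes the convertases apart, and CD59 stops the pore at its last step. CD55 and CD59 are held in the membrane by a glycosylphosphatidylinositol (GPI) anchor. CD46 spans the membrane and exists in several spliced forms. Between its complement-binding repeats and the membrane lies a stretch rich in serine, threonine and proline (STP), where sugars are attached, encoded by the alternative exons STP-A, STP-B and STP-C. A further alternative exon near the 3′ end decides which of the cytoplasmic tails CYT-1 or CYT-2 is made. In lymphocytes, CD46 also acts as a costimulatory receptor through these tails.

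The alternative exons of CD46 are shown because they set its main isoforms apart, and inclusion of STP-B was the one that differed most between the groups. Each sequence is from GRCh38 (hg38), chromosome 1, plus strand, 5′ to 3′. For the STP exons the capitals mark the exon, after 80 bases of the intron before it and with 30 bases of the intron behind it. For the exon near the 3′ end, called the tail exon here, the capitals mark the coding part of the exon with its stop codon, after 80 bases of intron. In the coding part of the last exon the capitals mark the stop codon used when the tail exon is skipped. STP-A spans chr1:207767607-207767651 (exon 7, 45 bases), STP-B chr1:207767779-207767823 (exon 8, 45 bases), STP-C chr1:207770321-207770362 (exon 9, 42 bases) and the tail exon chr1:207790253-207790345 (exon 13, 93 bases). The numbering is that of the isoform CD46-205, which carries all of them.
STP-A, chr1:207767527-207767681: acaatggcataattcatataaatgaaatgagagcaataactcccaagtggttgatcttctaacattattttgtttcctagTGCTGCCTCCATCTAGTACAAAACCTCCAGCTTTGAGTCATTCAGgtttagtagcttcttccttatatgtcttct
STP-B, chr1:207767699-207767853: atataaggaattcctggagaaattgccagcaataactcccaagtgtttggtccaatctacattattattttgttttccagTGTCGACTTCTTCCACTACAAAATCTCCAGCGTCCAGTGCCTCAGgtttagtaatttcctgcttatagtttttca
STP-C, chr1:207770241-207770392: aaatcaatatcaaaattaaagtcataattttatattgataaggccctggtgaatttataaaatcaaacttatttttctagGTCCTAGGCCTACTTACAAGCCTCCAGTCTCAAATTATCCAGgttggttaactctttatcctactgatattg
Tail exon, chr1:207790173-207790304: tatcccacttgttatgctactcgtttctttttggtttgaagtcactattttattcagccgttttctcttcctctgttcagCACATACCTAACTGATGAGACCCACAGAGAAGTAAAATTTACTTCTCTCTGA
Last exon, chr1:207793519-207793591: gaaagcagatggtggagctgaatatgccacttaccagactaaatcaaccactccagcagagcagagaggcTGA

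STP-A and STP-B lie only 127 bases apart and resemble each other. Compared position by position without gaps, 31 of 45 exon bases are identical (68.9%), and the 80 bases before them match at 36 positions (45%). Such a comparison misses shared stretches that are shifted, such as agcaataactcccaagtg, which stands before both exons at different distances. All 3 STP exons are multiples of 3 bases, so that skipping one keeps the reading frame. The tail exon adds 49 coding bases before its own stop codon. When it is skipped, 70 coding bases of the last exon are read instead, which gives a tail of a different sequence. The intron before the tail exon has 4570 bases and the intron after it 3173.

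The sequence around the exons was searched for short pyrimidine runs of the kind that PTBP1 binds, on the sense strand only, with overlapping matches counted. The motifs were TCTT and CTCTCT, in the 100 bases before and the 100 bases behind each exon, and the same windows of 189363 internal exons of the annotation served for comparison. Before the tail exon, pyrimidines made up 72% of the window, a value reached by 2.10% of all windows, where the median was 55.0%. That window held TCTT 3 times, as 9.27% of all windows did or exceeded, and CTCTCT 1 time, a motif present in 8.94% of them. The windows before STP-A, STP-B and STP-C had 51%, 56% and 50% pyrimidines, held TCTT 1, 1 and 0 times (60.7% of all windows hold it) and had no CTCTCT. Behind STP-A, STP-B, STP-C and the tail exon the windows had 57%, 63%, 58% and 53% pyrimidines, where the median of all windows was 51%, and the value of STP-B was reached by 7.14% of them. In these windows TCTT stood 3 times after STP-A (4.43% of all windows hold as many), 0 times after STP-B, 1 time after STP-C and 1 time after the tail exon, and 44.8% of all windows hold it. The window after STP-A and the window before STP-B lie in the same intron of 127 bases and overlap, so they are not separate. CTCTCT was absent behind all 4 exons (4.70% of all windows hold it). The exons themselves were not searched, and the capitals printed above hold TCTT in STP-B and CTCTCT in the tail exon. All these matches describe letters in the sequence and not binding.

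At the level of the whole gene, CD46 differed little between the groups. CD46 had 286, 195, 223 and 239 counts in shPTBP1 replicates 1 to 4 and 212, 234, 186 and 195 counts in shControl replicates 1 to 4. After normalization these were 180.9, 128.8, 146.8 and 153.0 CPM in shPTBP1 and 130.3, 149.0, 124.0 and 125.1 CPM in shControl. The shPTBP1 library of replicate 1 was the highest of all, and the groups overlapped. The means were 152 ± 21.6 CPM in shPTBP1 and 132 ± 11.6 CPM in shControl (SD, n = 4 each), a log2 fold change of 0.21 ± 0.10 (SE), which was 0.11 without shPTBP1 replicate 1.

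The convertase inhibitor CD55 and the pore inhibitor CD59 had at most 40 counts in a library. CD55 had 35, 25, 36 and 40 counts in shPTBP1 and 25, 36, 34 and 27 in shControl, or 21.99 ± 3.92 against 19.6 ± 3.81 CPM, with a log2 fold change of 0.17 ± 0.20 (SE) and overlapping groups. CD59 had 20, 14, 28 and 19 counts in shPTBP1 and 8, 17, 16 and 5 in shControl. Its means were 13.1 ± 3.84 and 7.40 ± 3.92 CPM, with a log2 fold change of 0.83 ± 0.36 (SE). The shControl replicates 2 and 3 of CD59 lay above shPTBP1 replicate 2, so that these groups overlapped too. All 3 genes passed the filter on low counts and none of them was called by edgeR or by DESeq2, at a background of 3.19% of the 7597 tested genes called lower (242) and 2.36% called higher (179). The groups of 12.7% of the tested genes (964) did not overlap, and no member was among them. Levels are not compared between the 3 genes, whose transcripts differ in length.

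**Figure D1:**
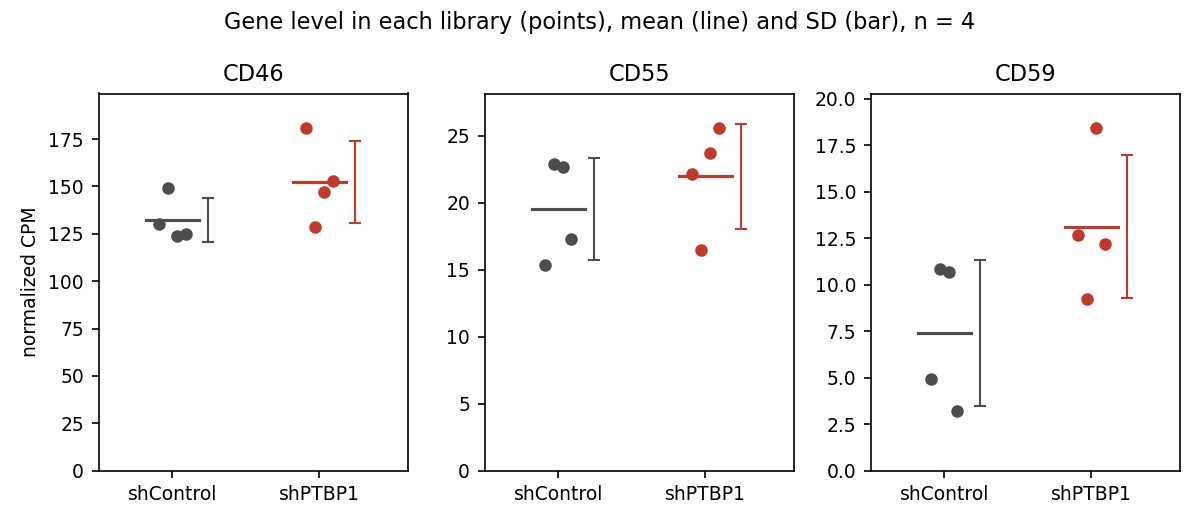
Normalized CPM (vertical axis, linear from 0, a different scale in each panel) of CD46, CD55 and CD59 in the 4 shControl and 4 shPTBP1 libraries, with 1 point per library, a line at the group mean and a bar of 1 SD. In each panel the points of the groups overlap, and the means are 132 and 152 CPM for CD46, 19.6 and 21.99 for CD55, and 7.40 and 13.1 for CD59.

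What differed in CD46 was the make-up of its transcripts. The 4 isoforms that combine the presence or absence of STP-B with that of the tail exon held 91.5% to 95.5% of the CD46 counts of a library, and all 4 carry STP-C and lack STP-A. CD46-203 (ENST00000354848.5, 384 codons) has STP-B and no tail exon, CD46-208 (ENST00000367042.6, 377 codons) has STP-B and the tail exon, CD46-204 (ENST00000357714.5, 369 codons) has neither, and CD46-207 (ENST00000367041.5, 362 codons) has the tail exon without STP-B. The forms with STP-B took smaller shares of CD46 in shPTBP1, and the forms without it took larger ones.

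CD46-203, the longest protein of the 4, had 62, 39, 30 and 47 counts in shPTBP1 and 62, 77, 56 and 70 in shControl. Its share of CD46 was 21.7%, 20%, 13.5% and 19.7% in shPTBP1 and 29.2%, 32.9%, 30.1% and 35.9% in shControl (18.7% ± 3.61 against 32.0% ± 3.01, SD, n = 4 each). All shPTBP1 libraries lay below all shControl libraries in this share, while the CPM of the isoform, 28.7 ± 8.19 and 42.3 ± 5.61, overlapped.

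CD46-207, the shortest, differed in the other direction. It had 72, 33, 45 and 47 counts in shPTBP1 and 20, 20, 21 and 23 in shControl. Its share was 25.2%, 16.9%, 20.2% and 19.7% in shPTBP1 and 9.43%, 8.55%, 11.3% and 11.8% in shControl, with means of 20.5% ± 3.44 and 10.3% ± 1.53. For this isoform both the share and the level, 31.8 ± 9.95 against 13.4 ± 1.14 CPM (a ratio of 2.36), separated the groups completely.

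CD46-204, which lacks both alternative exons, had 92, 65, 95 and 85 counts in shPTBP1 and 51, 72, 47 and 48 in shControl. The share was 32.2%, 33.3%, 42.6% and 35.6% against 24.1%, 30.8%, 25.3% and 24.6% (means 35.9% ± 4.67 and 26.2% ± 3.10), again without overlap. The level was 54.5 ± 8.41 CPM in shPTBP1 and 34.8 ± 7.35 CPM in shControl, and these levels overlapped. CD46-208, with both exons, had 47, 48, 41 and 49 counts in shPTBP1 and 61, 53, 51 and 43 in shControl, and its shares of 19.98% ± 3.51 and 25.2% ± 3.37 overlapped. Thus the most used form was CD46-204 in each shPTBP1 library and CD46-203 in each shControl library, by 1 count in shControl replicate 1.

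The isoform test (edgeR's diffSpliceDGE, with a call where the share moved by 10 percentage points or more and the adjusted p was under 0.05) called 61 of 5464 isoforms (1.12%). Of the members' isoforms 6 were tested, 4 of CD46 and 2 of CD55, and 2 were called, CD46-203 (-13.3 points) and CD46-207 (10.2 points). CD46-204 differed by 9.74 points and CD46-208 by -5.24 points, and neither was called. With a minimum change of 5 points the number of called CD46 isoforms was still 2, so neither had an adjusted p under 0.05. The shares of 10.7% of the tested isoforms (583) did not overlap between the groups, and for the members these were CD46-203, CD46-204, CD46-207 and CD55-204. Since the members were selected on this contrast, nothing is read from these counts. Each CD46 call rested on single libraries: CD46-203 was not called without shPTBP1 replicate 3, shPTBP1 replicate 4 or shControl replicate 4, with its change between -14.3 and -11.6 points over the alternatives. CD46-207 fell under 10 points, to 8.66 at the lowest, without shPTBP1 replicate 1, shControl replicate 1 or shControl replicate 2.

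**Figure D2:**
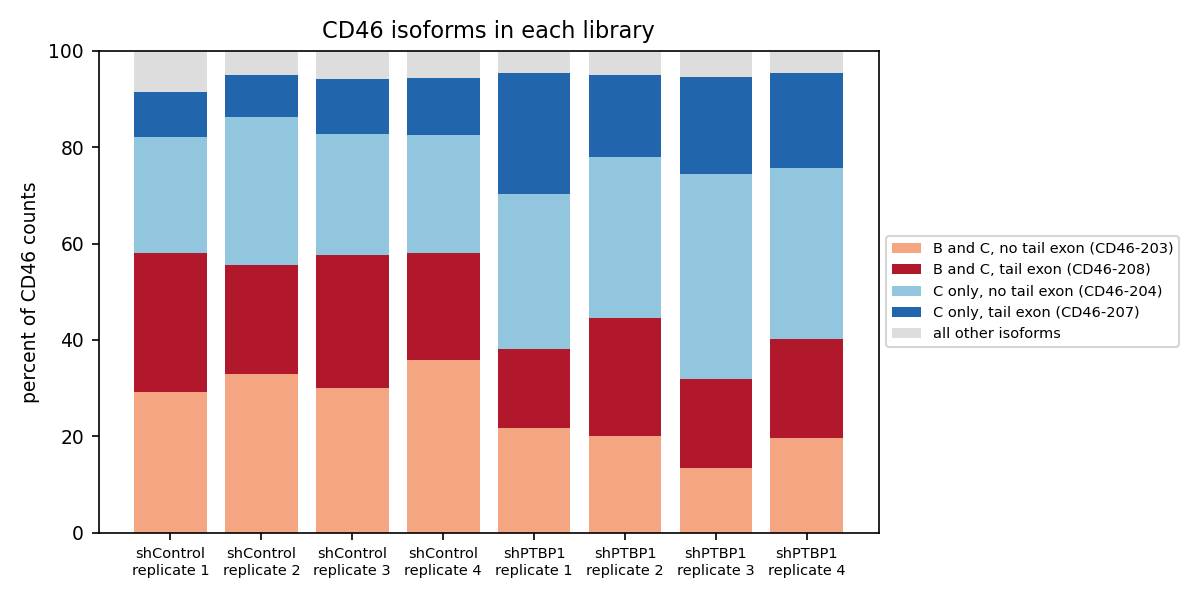
Percent of the CD46 counts (vertical axis) on 4 isoforms and on all others, 1 stacked bar per library, shControl on the left and shPTBP1 on the right. Red shades carry STP-B and blue shades lack it, dark shades carry the tail exon, and the dark blue band (CD46-207) runs from 8.55% to 11.8% in shControl and from 16.9% to 25.2% in shPTBP1.

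Inclusion was also counted by exon, over all transcripts whose annotated ends lie on either side of it. These exon shares regroup the same counts as the isoform shares, over nearly the same totals, and are not separate evidence. Exon and end shares were not counted over all genes, so a lack of overlap in them, here and below, has no background share. STP-B was present in 116 of 286, 91 of 193, 74 of 223 and 103 of 239 counts in shPTBP1, that is 40.6%, 47.2%, 33.2% and 43.1%. In shControl it was present in 134 of 212, 137 of 234, 113 of 186 and 119 of 195, that is 63.2%, 58.5%, 60.8% and 61.0%. The highest shPTBP1 library, replicate 2, was more than 11 points below the lowest shControl library. Inclusion was 41.0% ± 5.87 in shPTBP1 and 60.9% ± 1.91 in shControl (SD, n = 4 each), a difference of -19.9 points, which lay between -21.9 and -17.3 points over all alternatives including the removal of any library. The 95% Wilson interval of a library's STP-B or tail-exon share reached 5.65 to 7.02 points to either side, for counting error only.

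The neighbouring STP exons were used nearly always or nearly never in both groups. STP-A was present in 9 of 941 counts in shPTBP1 and 19 of 827 in shControl (0.92% ± 0.63 and 2.33% ± 0.44). In shPTBP1 replicate 3 it had 0 of 223 counts, which allows a share of up to 1.69% by the Wilson interval. STP-C was present in 98.2% ± 0.59 of the counts in shPTBP1 and 99.2% ± 0.39 in shControl. Neither exon's shares overlapped between the groups, but both rest on few counts, since STP-C was missing from 17 counts in shPTBP1 and 7 in shControl. Among those, CD46-206, which skips all 3 STP exons, had 10 counts in shPTBP1 and 1 in shControl.

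The choice of the cytoplasmic tail overlapped between the groups. The tail exon, which gives CYT-1, was present in 43.4%, 43.3%, 40.8% and 41.0% of the counts in shPTBP1 and in 42.5%, 33.3%, 41.9% and 36.4% in shControl (42.1% ± 1.40 and 38.5% ± 4.42). The constitutive exon before it, exon 12 of 64 bases, was present in 98.5% and 98.4%. STP-B inclusion differed in the same direction on transcripts of either tail. Among transcripts with the tail exon, STP-B was present in 50.4% ± 7.89 in shPTBP1 and 71.9% ± 4.06 in shControl. Among those without it, STP-B was present in 35.2% ± 6.88 and 56.2% ± 3.19, and in neither class did the groups overlap.

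A nanopore read can span both alternative regions of CD46, so their combination can be counted, as far as the assignment of reads to annotated transcripts holds. The tail exon was present more often on transcripts with STP-B than on those without it in 8 of 8 libraries, in 47.4% against 31.9% on average. The difference within a library was 15.5 ± 7.99 points (SD, n = 8), from 1.36 points in shPTBP1 replicate 1 to 24.2 points. It was 15.4 ± 10.3 points in shPTBP1 and 15.6 ± 6.56 points in shControl (SD, n = 4 each), with a range of 5.87 to 19.7 points in shControl. With STP-B, the tail exon was present in 51.0% ± 5.37 in shPTBP1 and 43.7% ± 5.24 in shControl. Without STP-B it was present in 35.5% ± 4.99 and 28.2% ± 4.62, and both classes overlapped. The other 15 isoforms with a count included forms with a retained intron, CD46-212 with 4 and 5 counts and CD46-218 with 5 and 11 in shPTBP1 and shControl, and CD46-220, a protein-coding form with 11 counts in each group.

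CD55 is made with different C-termini. CD55-204 (ENST00000367064.9, 381 codons), which encodes the GPI-anchored form, ends in an exon at chr1:207359546-207360966. CD55-203 (ENST00000367063.6, 444 codons) ends earlier, in an exon of 376 bases at chr1:207340391-207340766. CD55-201 (ENST00000314754.12, 440 codons) uses 118 bases of that exon as an insert before the last exon, at chr1:207340391-207340508, and so reads the last exon in another frame.

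CD55-204 had 12, 8, 12 and 17 counts in shPTBP1 and 2, 11, 9 and 7 in shControl, or 35.5% ± 4.74 and 22.7% ± 10.04 of CD55. All transcripts that end in its exon without the insert made up 40%, 40%, 41.7% and 45% in shPTBP1 and 8%, 30.6%, 32.4% and 33.3% in shControl. The groups did not overlap, with means of 41.7% ± 2.36 and 26.1% ± 12.1. The size of the difference rests on shControl replicate 1, since it was 15.6 points with that library and 9.59 points without it. CD55-203 had 19, 12, 17 and 18 counts in shPTBP1 and 18, 20, 15 and 15 in shControl (48.6% ± 3.98 and 56.8% ± 11.5), and CD55-201 had 2, 3, 4 and 3 against 5, 5, 8 and 3 (9.08% ± 2.97 and 17.1% ± 5.65). Both overlapped. The Wilson interval of the share ending in the exon of CD55-204 reached 11.4 to 17.9 points to either side.

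CD59 encodes the same 128 codons in its main isoforms, which differ in the untranslated parts. CD59-202 (ENST00000395850.9) ends in an exon of 1629 bases (chr11:33708715-33710343) and CD59-211 (ENST00000642928.2) in the same exon extended to 7334 bases (chr11:33703010-33710343). CD59-202 had 12, 8, 14 and 11 counts in shPTBP1 and 2, 10, 6 and 0 in shControl, where 0 of 5 allows a share of up to 60.0%. CD59-211 had 5, 2, 4 and 2 counts in shPTBP1 and 3, 6, 6 and 4 in shControl. Their shares were 56.3% ± 4.34 against 30.3% ± 24.6 for CD59-202, with overlap, and 16.0% ± 6.24 against 47.6% ± 21.6 for CD59-211.

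Counting every CD59 transcript with the long last exon gave 30%, 21.4%, 14.3% and 10.5% in shPTBP1 (of 20, 14, 28 and 19 counts) and 37.5%, 41.2%, 43.8% and 80% in shControl (of 8, 17, 16 and 5). These shares did not overlap, at 19.1% ± 8.58 and 50.6% ± 19.8, but the background of 10.7% covers tested isoforms only and is no reference for them. Without shControl replicate 4 the difference was -21.7 points instead of -31.5. No CD59 isoform had enough counts for the isoform test, and the Wilson interval of the share with the long last exon reached 12.9 to 29.4 points to either side. CD59-201 (ENST00000351554.8), with a last exon of 348 bases, had 2, 2, 4 and 2 counts in shPTBP1 and 2, 0, 3 and 1 in shControl. CD59-209 (ENST00000528987.1), annotated as a retained intron, had 6 and 4 counts in shPTBP1 replicates 3 and 4 and 0 in the other 6 libraries. In those 6, the Wilson intervals allow shares of up to 16.1% to 43.4%.

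The rest of the complement system was described from 3 lists of genes, beside medians over all tested genes of -0.00 (log2 fold change). Of 21 other regulators, 10 had a count and only CFP (properdin, which stabilizes the alternative-pathway convertase) was tested. It was not called by edgeR or DESeq2, and its unadjusted p was not under 0.05. Its level was 16.0 ± 1.84 CPM in shPTBP1 and 16.9 ± 4.10 CPM in shControl (log2 fold change -0.07 ± 0.21 SE, edgeR adjusted p = 0.909). CR1 and CR2, the complement receptors that share the repeat structure of CD46 and CD55, had 0 counts in all 8 libraries, which allows up to 3 counts in each.

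Of 28 complement components, 15 had a count and 2 were tested, with 1 lower, 0 higher and a median of -0.48. CFD (factor D, the protease that activates the alternative pathway, made by myeloid cells and fat) fell to 71.1 ± 30.9 CPM from 194 ± 50.2 CPM (log2 fold change -1.45 ± 0.24 SE, edgeR adjusted p = 0.00387), with no overlap between the groups. It was called in each of 8 fits that left out a library, with a log2 fold change between -1.78 and -1.30. C5, the source of the pore's first subunit, was at 15.0 ± 3.395 and 10.7 ± 2.15 CPM (0.49 ± 0.24 SE, edgeR adjusted p = 0.291). C3, on which CD46 and CD55 act, had 14 counts in shPTBP1 and 16 in shControl and was not tested.

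Of 7 complement receptors, 6 had a count and 3 were tested, with 1 lower, 1 higher and a median of -0.73. ITGB2, the β chain of the C3-fragment receptors CR3 and CR4, fell to 98.5 ± 25.1 CPM from 163 ± 30.1 CPM (-0.73 ± 0.16 SE, edgeR adjusted p = 0.0193). C1QBP, a mostly mitochondrial protein first described as binding the globular heads of C1q, rose to 115 ± 10.8 CPM from 85.0 ± 10.4 CPM (0.44 ± 0.10 SE, edgeR adjusted p = 0.0275). Each was called in 3 of 8 fits that left out 1 library, and neither was called without shPTBP1 replicate 2, 3 or 4 or without shControl replicate 2 or 4. With the replicate number as a block, C1QBP was not called (adjusted p = 0.0686). ITGAM, the α chain of CR3, was at 6.75 ± 4.86 and 12.3 ± 2.17 CPM (-0.85 ± 0.38 SE, edgeR adjusted p = 0.245) and, among the alternatives, was called only without shPTBP1 replicate 1 (adjusted p = 0.0282).

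The GPI anchor of CD55 and CD59 is built in the endoplasmic reticulum by the PIG proteins, joined to the protein by a transamidase and trimmed by the PGAP proteins. Of 32 such genes, 31 had a count and 25 were tested, with 0 lower, 1 higher and a median of 0.10. PIGT, a subunit of the transamidase, rose to 342 ± 19.7 CPM from 211 ± 9.02 CPM (0.70 ± 0.07 SE, edgeR adjusted p = 6.46e-05), without overlap and in each of 8 fits that left out a library. GPAA1, another transamidase subunit, was at 168 ± 15.5 and 157 ± 13.6 CPM (edgeR adjusted p = 0.589), and DPM1, which makes the mannose donor, at 299 ± 25.2 and 268 ± 33.5 CPM (edgeR adjusted p = 0.373). Neither passed the test. PIGC, an early enzyme of the pathway, was called only under some alternatives, such as without the filter on low counts (adjusted p = 0.0202 by edgeR, against 0.0584 with it). PIGA, the gene whose loss in blood stem cells leaves blood cells without CD55 and CD59, had 79 counts in shPTBP1 and 72 in shControl (0.15, edgeR adjusted p = 0.819), and was, like PIGC, named after its values were seen.

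Of 25 other GPI-anchored surface proteins of blood cells, 17 had a count and 12 were tested, with 1 lower, 0 higher and a median of -0.00. PLAUR, the urokinase receptor, fell to 78.5 ± 3.02 CPM from 99.8 ± 3.93 CPM (-0.34 ± 0.08 SE, edgeR adjusted p = 0.0262). It was called in only 2 of 8 fits that left out a library, those without shPTBP1 replicate 1 or shControl replicate 1, and not by DESeq2 (adjusted p = 0.131). CD58, BST2 and LY6E, the tested genes of this list with the most counts, had log2 fold changes of 0.17, 0.11 and -0.02 and did not pass the test.

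Of 11 genes for proteins that bind CD46 or CD55 or cut CD46, 10 had a count, 8 were tested and none was called by edgeR or DESeq2 or had an unadjusted p under 0.05, with a median of 0.10. NCSTN and APH1A, subunits of γ-secretase, the protease that cuts the CD46 stub within the membrane, had log2 fold changes of -0.07 and -0.08. Over the 6 lists, 51 of 124 genes were tested, 3 were called lower and 2 higher, where 3.19% and 2.36% of all tested genes were called. An unadjusted edgeR p under 0.05 was reached by 9 of the 25 tested genes of GPI-anchor synthesis and 3 of 3 receptors. Among other GPI-anchored proteins 2 of 12 reached it, and among components 1 of 2. The same share over all tested genes was not counted, so nothing is read from these numbers.

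**Figure D3:**
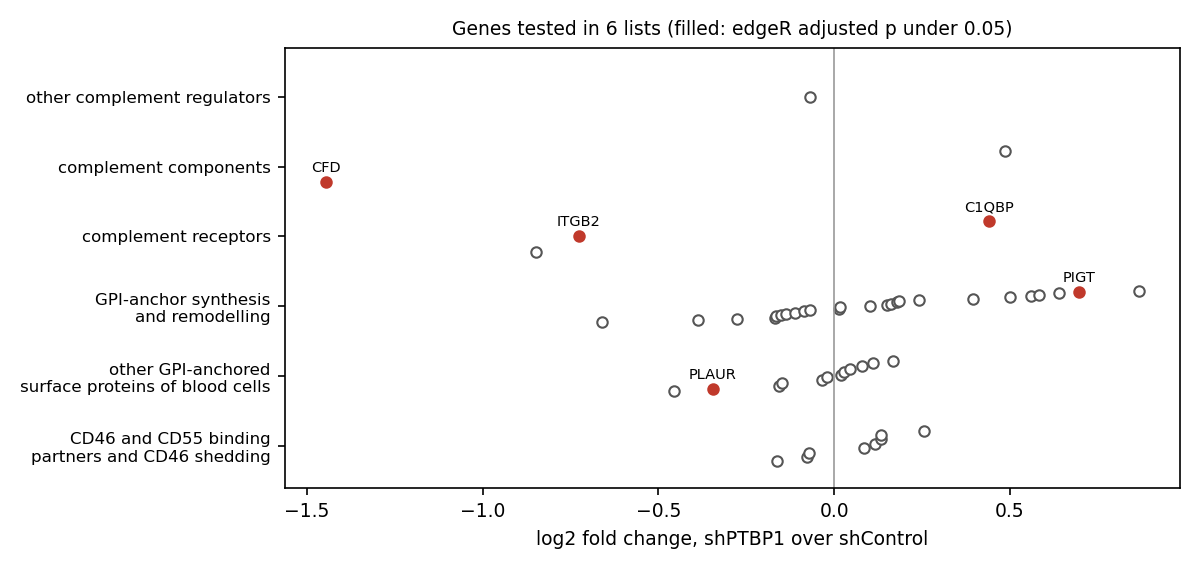
Log2 fold change, shPTBP1 over shControl (horizontal axis), of the 51 tested genes in the 6 lists (vertical axis), 1 circle per gene, filled and named where edgeR's adjusted p was under 0.05. CFD lies farthest to the left at -1.45, and PIGT, at 0.70, is the filled gene farthest to the right.

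The genes whose log2 CPM followed each member most closely over the 8 libraries were named among 3680 or 3681 tested genes with a mean of at least 50 counts. For CD46 they were ERAL1 (Pearson's r = 0.92), SRR (0.92) and ESYT1 (0.91), for CD55 RSPRY1 (0.93), CDKN3 (0.91) and KLHL12 (0.91), and for CD59 DSN1 (0.93), CEP20 (0.92) and BZW2 (0.92). These are the highest of 3680 values or more over n = 8 libraries of 2 groups that share the same normalization, and they are given as a description.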

How the data were processed

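MOLM-13 RNA was sequenced from 4 shPTBP1 and 4 shControl libraries. The authors aligned nanopore cDNA reads to hg38 with minimap2, filtered the alignments by mapping quality and took counts per annotated transcript from StringTie, per their methods and processing notes. The tool versions and annotation version are not given in the sources used here. The deposited counts are whole numbers per transcript without normalization. The authors' assignment of incomplete reads to isoforms bears directly on every isoform and exon share here. A second table of the authors, derived from the same counts, was not used.

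Transcripts were assigned to genes and exons by Ensembl identifier in GENCODE version 44 (252562 of 254070 matched, and the 1508 others, at most 0.115% of a library's counts, were left out). Gene sums were filtered with filterByExpr (minimum count 10), scaled by TMM and compared in edgeR 4.0.16 (glmQLFit and glmQLFTest, quasi-likelihood, no covariate besides group). Genes with an adjusted p (Benjamini-Hochberg) under 0.05 were called. Isoforms were tested with diffSpliceDGE. The isoform tool of the study was not used. All tests ran over the whole table. Shares of CD46 exons used the counts on transcripts whose annotated ends lie on either side of the exon. Wilson intervals (95%) and limits for genes with 0 counts (3 counts) cover counting error only, and PCR-amplified cDNA reads are not independent molecules. Alternatives were DESeq2 1.42.0, limma-voom and diffSplice (limma 3.58.1), other scalings and filters, the replicate number as a block, and leaving out each library. R 4.3.3 and Python 3.11.15 were used.

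The members and the gene lists were chosen with earlier results of these data known. The named list genes are those called and the 3 tested genes with the most counts in each list. The named isoforms held at least 5% of their gene's counts in the mean of either group, and isoforms below that were named after their values were seen, as were CR1, CR2 and C3. Some results are not reported here. The replicate numbers were not treated as pairs, since the deviations of same-numbered libraries from their group means correlated between -0.0328 and 0.00889 across genes. The labels call the replicates biological without naming separate transductions or cultures, so p-values measure the spread between these libraries.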

Additional observations from a re-analysis of the deposited data

Results flagged for a closer look

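For 82 sets of 4 libraries, the highest and the lowest value were compared with the others by Dixon's criterion, and 4 values, from 3 libraries, stood apart. Chance marks about 1 in 20 such sets, 4.1 here. The share of CD59-211 was 80% of the CD59 counts in shControl replicate 4 and 35.3% to 37.5% in the other shControl libraries. The share of CD59 with the long last exon was 80% in that library, from the same 5 counts, and 37.5% to 43.8% in the others. The share of CD55 ending in the exon of CD55-204 was 8% in shControl replicate 1 (2 of 25 counts) and 30.6% to 33.3% in the others. NCSTN, a subunit of γ-secretase, was at 241 CPM in shControl replicate 3 and at 191 to 199 CPM in the other shControl libraries.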

How the results depend on the processing

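The number of called genes was 421, and 184 to 358 without 1 library. The number of list genes called was 5, and 2 to 7 without 1 library. The number of called isoforms was 61, 155 with limma's diffSplice, 28 with a minimum change of 20 points, and 42 to 54 without 1 library. The number of called CD46 isoforms was 2, 0 with a minimum change of 20 points, and 1 to 2 without 1 library. Among transcripts with a mean of at least 5 counts, the differences of STP-A and STP-C were 0 points, because only the 4 main isoforms remain there. With the replicate block, 323 genes, 52 isoforms and 2 CD46 isoforms were called, and 4 list genes, without C1QBP and PLAUR but with PIGC (adjusted p = 0.0496 by edgeR). The log2 fold change without 1 library lay between 0.11 and 0.28 for CD46, 0.07 and 0.28 for CD55, and 0.58 and 1.07 for CD59, with positive values throughout. No member was called as a gene under any alternative fitted. With 46 to 136 counts per group, shares of CD55 and CD59 isoforms were limited by depth.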
